A study of Mus musculus with 6 samples.

Results

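Hepcidin and its iron-handling partners were compared between the livers of 2 mouse strains, with 10 genes taken by their symbol on the array: Hamp, Hamp2, Bmp6, Tfrc, Tfr2, Trf, Slc40a1, Ftl1, Fth1 and Cp. Of 45037 probe sets tested, 22 carried exactly 1 of these symbols, and they covered 8 of the 10 genes. Trf and Ftl1 are listed on 4 probe sets that also name other genes, so no value is given for either. A further 3 probe sets of Tfrc belong to the control probe sets of the array. They are described but were not tested.

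The samples were whole livers of male mice, 18 weeks old and fed standard chow. BKS (C57BL/KS, titled wild type) was the control strain with 3 arrays. NZO (New Zealand Obese) had 3 arrays and becomes obese and diabetic by that age on this diet. The labels name no engineered allele, drug or challenge in either strain. They also do not say which animals are the littermates mentioned in the design, or state outright that each array is a separate animal, so the p-values measure the spread between these samples. Values are log2 expression after RMA, the usual background correction, normalization and summary of this array type, and a difference of 1 is a 2-fold change. Every log2 difference is NZO minus BKS, tested with limma, with Benjamini-Hochberg adjustment across the 45037 probe sets, and a probe set was called at an adjusted p below 0.05. Counts at unadjusted p below 0.05 are a description only, because the share of all probe sets at that threshold was not computed. In whole liver, fewer cells of a type and less RNA per cell cannot be told apart.

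Hepcidin is a peptide hormone made by hepatocytes. It binds ferroportin (Slc40a1), the iron exporter of macrophages, enterocytes and hepatocytes, and causes its degradation, which lowers plasma iron. Bmp6 from sinusoidal endothelial cells signals through Smad proteins in the hepatocyte to raise Hamp transcription, Tfr2 and Hfe take part in sensing iron-loaded transferrin, and interleukin-6 acts on the same gene through Stat3. Mice carry a tandem pair of hepcidin genes. Hamp is the copy known to control plasma iron, and no such role is established for Hamp2.

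The upstream sequences of the hepcidin copies are shown first, as a description of the pair. Each is the 250 bases before the annotated transcript start in RefSeq, build GRCm38.p6, read on the minus strand of chromosome 7. They are chr7:30944030-30944279 for Hamp and chr7:30924182-30924431 for Hamp2. The sequence is that of the reference strain C57BL/6J, and the DNA of BKS and NZO was not analysed here. It therefore says nothing of a difference between those strains. Capitals mark matches to GGCGCC, the core letters of the BMP-responsive element described in hepcidin promoters, and to TTCNNNGAA, the letters bound by STAT factors. Both motifs read the same on either strand.
Hamp: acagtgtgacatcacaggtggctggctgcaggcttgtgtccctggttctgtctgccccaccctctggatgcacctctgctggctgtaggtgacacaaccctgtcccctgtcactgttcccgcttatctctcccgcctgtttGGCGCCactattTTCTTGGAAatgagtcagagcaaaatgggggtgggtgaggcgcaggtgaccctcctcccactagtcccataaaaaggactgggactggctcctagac
Hamp2: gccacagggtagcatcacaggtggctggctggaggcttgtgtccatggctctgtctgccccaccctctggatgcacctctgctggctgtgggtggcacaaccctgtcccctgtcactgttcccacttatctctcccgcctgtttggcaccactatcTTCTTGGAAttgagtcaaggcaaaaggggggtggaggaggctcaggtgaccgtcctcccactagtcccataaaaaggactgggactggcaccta
The windows aligned over 253 columns, of which 227 (89.7%) were identical, 20 were mismatches and 6 were gaps. TTCTTGGAA stood in both windows, beginning 97 bases before the start in Hamp and 94 in Hamp2. GGCGCC stood in the Hamp window only, 109 bases before the start, and did not overlap the other match. The Hamp2 window differed there by the substitution G145A, counted from 1 at the 5′ end of the Hamp window with the Hamp base first. Among all 32851 windows of the same length in the table, 9.59% held GGCGCC, 7.02% held TTCNNNGAA and 0.368% held both. Such a match is a description of letters, and the absence of one says nothing of whether a factor acts on the gene.

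Hamp2 was higher in NZO by its bright probe set, the only one of the 22 probe sets that was called over all 6 arrays. This probe set, 1436643_x_at, read 11.66, 11.49 and 11.69 in BKS, against 13.72, 13.53 and 13.41 in NZO. The 3 NZO values all lay above the 3 BKS values, with a gap far wider than the spread within either strain. The means were 11.61 ± 0.11 (SD, n = 3) and 13.55 ± 0.16, a log2 difference of 1.94 with a standard error of 0.14, or 3.84-fold with a 95% confidence interval of 3.04 to 4.85 (adjusted p = 0.00471). Over the whole array 0.191% of probe sets were called higher in NZO and 0.233% lower. The call was lost in 1 of the alternatives, when BKS replicate 2 was left out (log2 difference 1.88, adjusted p = 0.0601), where 26 probe sets were called in all.

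The other Hamp2 probe set, 1456289_at, lay at 5.20, 5.17 and 5.35 in BKS and 5.27, 5.02 and 5.56 in NZO, next to the array medians of 5.08 to 5.22. It therefore carried little signal in either strain, and its log2 difference was 0.05 (95% confidence interval -0.36 to 0.45, adjusted p = 0.961). The Hamp2 result thus rests on 1 probe set. The suffix _x_at marks probe sets in which some probes match more than 1 transcript, and how much Hamp RNA binds to 1436643_x_at was not tested. The array's probe sequences were also not compared with BKS or NZO DNA. The part of strain sequence variants in any probe set's difference was not tested.

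Hamp itself was bright in both strains and was not called. Its probe set 1419196_at read 13.37, 14.02 and 13.57 in BKS, against 12.66, 14.02 and 13.69 in NZO. The ranges overlapped, with the lowest value in NZO replicate 1 and the highest values of the strains level. The log2 difference was -0.20 (standard error 0.36, 95% confidence interval -1.06 to 0.66, adjusted p = 0.914). The interval spans a fold of 0.479 to 1.58. Probe set 1419197_x_at gave almost the same picture, with 13.18, 13.87 and 13.41 against 12.51, 13.88 and 13.50 and a log2 difference of -0.19 (adjusted p = 0.921).

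The strain effects on the hepcidin copies were then compared within each array, by subtracting the log2 value of Hamp (1419196_at) from that of Hamp2 (1436643_x_at). Only the change of this quantity between strains has a meaning, since probe sets differ in sensitivity. The 3 BKS arrays gave -1.71, -2.54 and -1.89, and the 3 NZO arrays gave 1.06, -0.49 and -0.28. The strains did not overlap, and the difference of the strain differences was 2.14 on the log2 scale. A two-sided exact permutation test over the 6 arrays gave p = 0.1, the smallest that 3 against 3 arrays allow.

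**Figure D1:**
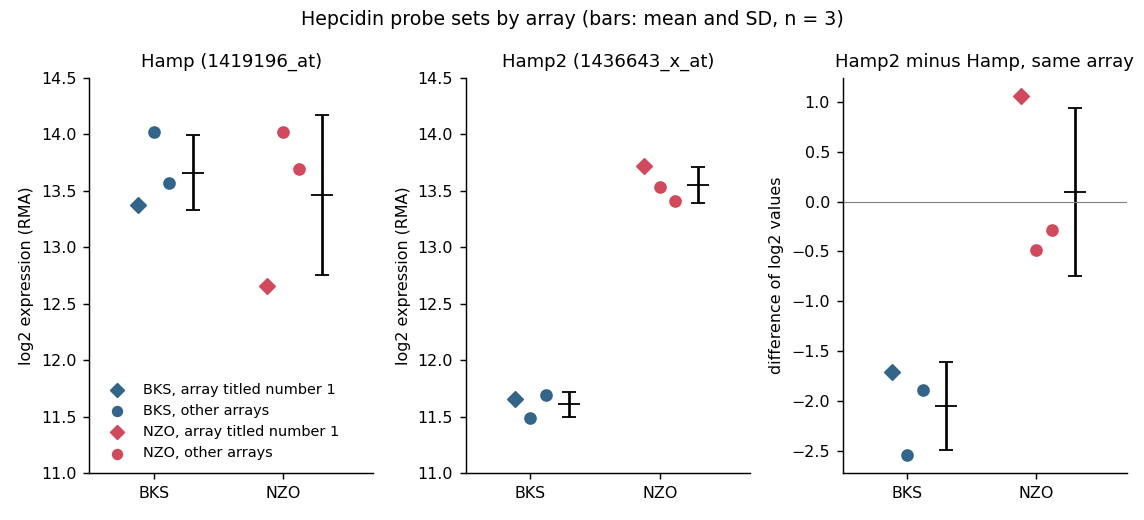
Log2 expression of the brightest Hamp and Hamp2 probe sets (left and middle) and the log2 value of Hamp2 minus that of Hamp on the same array (right), by strain; each point is 1 array, diamonds are the arrays titled number 1, and bars are the mean and SD of 3 arrays. Hamp2 lay between 11.49 and 11.69 in BKS and between 13.41 and 13.72 in NZO, while the Hamp values of the strains overlap.

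Array quality moved with some of these values. Replicate 1 of each strain is the array titled number 1, and there the 18 spiked-in hybridization control probe sets had means of 9.29 (BKS) and 8.17 (NZO), against 10.2 to 11.5 on the other 4 arrays. NZO replicate 1 had the lowest of the 6 values in 11 of the 16 member probe sets that averaged at least 6, and in 54.8% of the 16482 such probe sets on the whole array. In the 5 hepatocyte markers measured, which include albumin (Alb), the mean log2 level was 13.29 in NZO replicate 1 and 14.07 to 14.27 on the other arrays, so the tissue was liver by its markers on every array. Beta-actin 3′ minus 5′ signal, which rises with truncated RNA or cDNA, was 1.72 to 2.33 in BKS and 1.29 to 1.39 in NZO, and that of Gapdh was 0.45 to 0.98 and -0.04 to 0.14. The same subtraction for Tfrc, from dim probe sets, gave 0.72 to 0.83 in BKS and 0.94 to 1.18 in NZO. Its 5′ probe set was below the array medians on every array, from 3.50 to 3.83. The Tfrc value therefore followed mostly the 3′ signal and says little of RNA quality. The 3′ minus 5′ measures did not overlap between the strains, so they cannot be told apart from strain on these arrays. The part of any of these measures in the results was not tested. Hamp2 differed by 2.06 between the number 1 arrays and by 1.88 between the 2 against 2 other arrays (adjusted p = 0.00332). Hamp differed by -0.71 and 0.06 in the same comparisons, and its sign also turned with repeated quantile normalization (0.035) and cyclic loess (0.19).

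**Figure D2:**
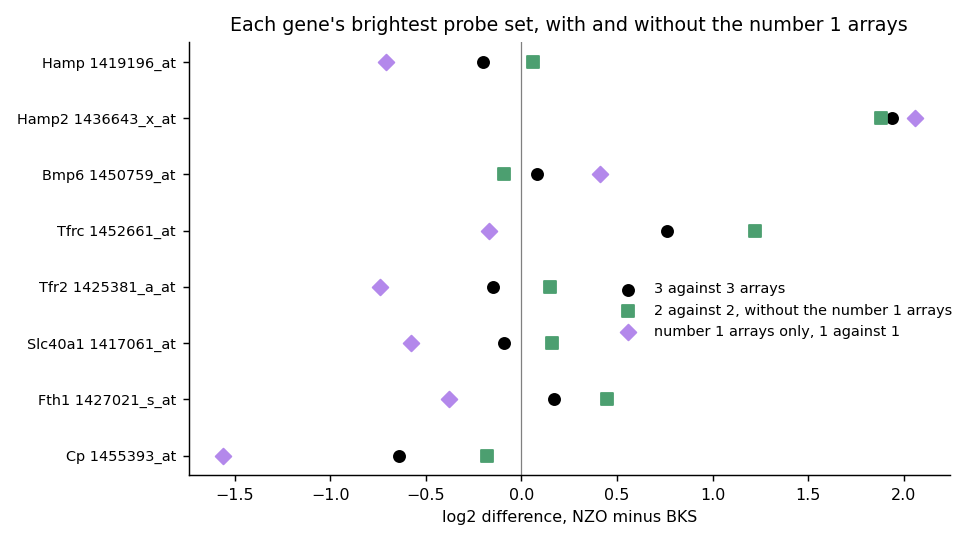
Log2 difference, NZO minus BKS, of each gene's brightest probe set over all 6 arrays (circles), over the 2 against 2 arrays without those titled number 1 (squares) and between the number 1 arrays alone (diamonds). Hamp2 stayed between 1.88 and 2.06, while Hamp ran from -0.71 to 0.06 and Cp from -1.56 to -0.18.

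Upstream of hepcidin, the ligand Bmp6 was measured by 1 dim probe set (1450759_at). It read 5.21, 5.62 and 5.48 in BKS, against 5.62, 5.48 and 5.44 in NZO. The strains overlapped near the array medians, with a log2 difference of 0.08 (95% confidence interval -0.28 to 0.43, adjusted p = 0.925). The 7 sinusoidal endothelial markers, from the cells that make Bmp6, had a mean log2 level of 6.64 to 6.98 in BKS and 7.06 to 7.75 in NZO, and none of the 7 was called in limma (3 higher and 0 lower at unadjusted p below 0.05). Pecam1 was called higher with the number 1 arrays as a block (adjusted p = 0.0455), and Pecam1 and Fcgr2b in the 2 against 2 arrays (adjusted p = 0.0416 and 0.0379). The Pecam1 probe set was dim, at 4.27 to 4.37 in BKS and 4.82 to 5.20 in NZO, near or below the array medians. The part of these markers in the Bmp6 value was not tested.

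The transferrin receptors belong on the sensing and uptake side. Tfr2, which hepatocytes use to sense transferrin, was bright in both strains. Its probe set 1425381_a_at read 12.10, 12.33 and 12.37 in BKS and 11.36, 12.51 and 12.49 in NZO. NZO replicate 1 was the lowest and the other NZO arrays the highest of the 6, and the log2 difference was -0.15 (95% confidence interval -0.90 to 0.61, adjusted p = 0.931). The second probe set, 1459994_x_at, read 12.29, 12.42 and 12.39 against 11.41, 12.19 and 12.02. Here every NZO array lay below every BKS array, yet the log2 difference of -0.50 was not called (95% confidence interval -1.01 to 0.01, adjusted p = 0.509). Among all probe sets 15.3% had strains that did not overlap, and among the 22 members 5 did.

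Tfrc, the transferrin receptor that imports iron into most cells, lay above BKS in part of the NZO arrays and was not called over all 6. The brightest probe set, 1452661_at, read 9.34, 9.17 and 9.10 in BKS and 9.17, 10.31 and 10.40 in NZO. NZO replicates 2 and 3 stood above all BKS arrays, and NZO replicate 1 lay among them. The log2 difference was 0.76 (standard error 0.33, 95% confidence interval -0.02 to 1.53, adjusted p = 0.508). Without NZO replicate 1 it was 1.15 and was called (adjusted p = 0.0373), as it was at 1.22 in the 2 against 2 arrays (adjusted p = 0.012), where 2.65% of all probe sets were called, 1.38% higher and 1.26% lower. The number 1 arrays alone differed by -0.17.

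A second Tfrc probe set, 1422966_a_at, read 6.11, 5.14 and 6.02 in BKS and 7.04, 7.18 and 6.51 in NZO. All 3 NZO values, NZO replicate 1 included, were higher than all 3 BKS values. The log2 difference was 1.16 (95% confidence interval 0.43 to 1.88, unadjusted p = 0.007), which was not called after adjustment (adjusted p = 0.243, and 0.0735 with the number 1 arrays as a block). The third, 1422967_a_at, was below the array medians on every array, from 3.60 to 4.88, with a log2 difference of 0.55 (adjusted p = 0.560). The 3 control probe sets of Tfrc were also below the array medians. Toward the 3′ end of the transcript they read 4.26, 4.41 and 4.51 in BKS and 5.01, 4.88 and 4.57 in NZO, and at the 5′ end between 3.50 and 3.83 on all arrays. Of the 5 erythroid markers measured, a cell type rich in Tfrc, none was called in limma (0 higher and 1 lower at unadjusted p below 0.05), and their mean log2 level was 6.53 to 6.76 in BKS and 6.37 to 6.92 in NZO. Their part in the Tfrc values was not tested.

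Ferroportin (Slc40a1), the target of hepcidin, was not called by either probe set. The bright one, 1417061_at, read 10.79, 10.87 and 10.79 in BKS, against 10.21, 11.17 and 10.80 in NZO. The BKS values were nearly equal and lay inside the NZO range, with a log2 difference of -0.09 (95% confidence interval -0.66 to 0.49, adjusted p = 0.948). The other, 1448566_at, read 8.44, 8.73 and 9.13 against 9.12, 9.73 and 9.03. It leaned the other way, by 0.53, with overlapping strains (95% confidence interval -0.07 to 1.13, adjusted p = 0.568). The 9 Kupffer cell and macrophage markers, from cells that hold much of the liver's ferroportin, averaged 6.84 to 7.74 in BKS and 7.02 to 7.81 in NZO. None of the 9 was called in limma (1 higher and 0 lower at unadjusted p below 0.05). Vsig4 was called higher in the 2 against 2 arrays (adjusted p = 0.00734). The part of these markers in the Slc40a1 values was not tested.

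Iron storage was represented by Fth1, the heavy subunit of ferritin, which oxidizes iron as it enters the shell. Probe set 1427021_s_at read 13.71, 13.74 and 14.01 in BKS and 13.33, 14.30 and 14.35 in NZO. NZO held both the lowest and the highest values, and the log2 difference was 0.17 (95% confidence interval -0.51 to 0.85, adjusted p = 0.905). Probe set 1448771_a_at read 13.50, 13.62 and 13.79 against 12.64, 14.00 and 13.91, with a log2 difference of -0.12 (adjusted p = 0.953). Without NZO replicate 1 the Fth1 differences were 0.50 and 0.32, and neither was called (adjusted p = 0.295 and 0.508).

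**Figure D3:**
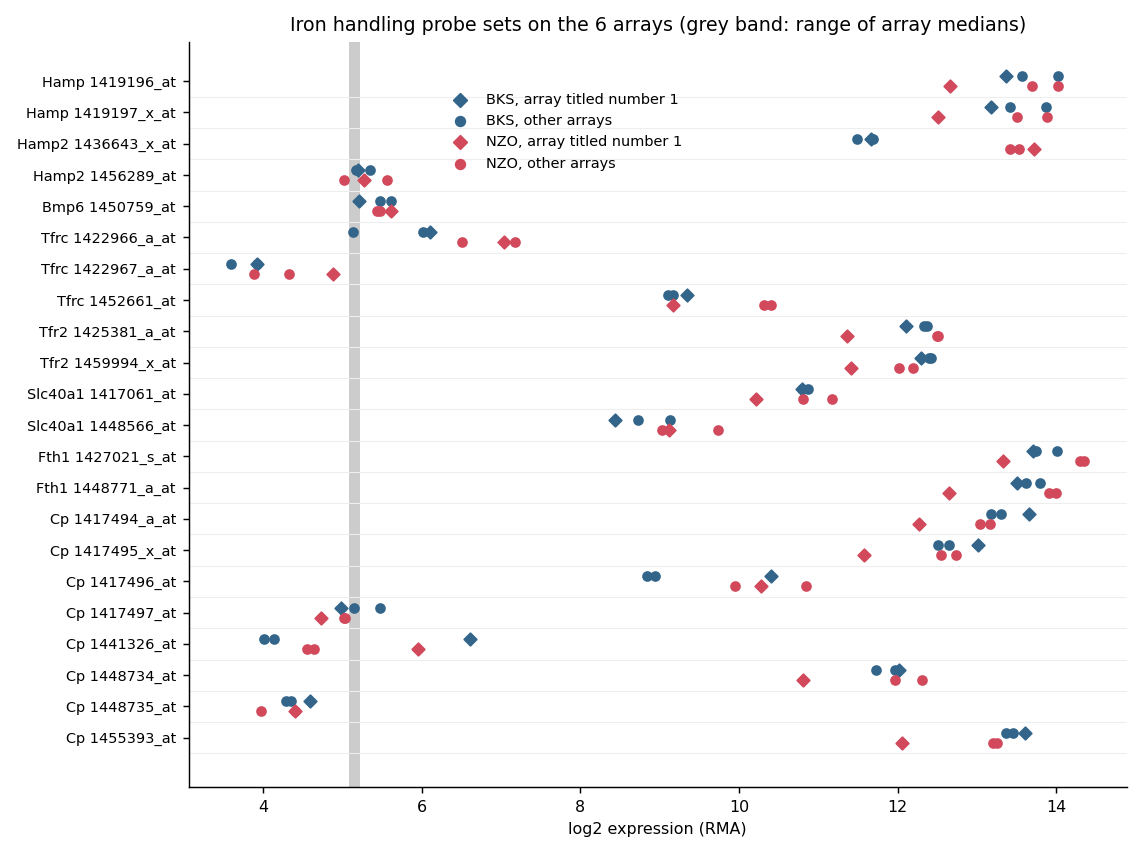
Log2 expression of the 22 member probe sets on the 6 arrays, with BKS in blue and NZO in red, diamonds for the arrays titled number 1, and a grey band for the array medians of 5.08 to 5.22. The Hamp2 probe set 1436643_x_at shows the widest gap between the strains relative to its scatter, and NZO replicate 1 is the lowest point in 11 of the 16 probe sets that averaged at least 6.

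Cp, or ceruloplasmin, is the plasma ferroxidase that loads iron onto transferrin, and it had 8 probe sets that did not move alike. The brightest, 1455393_at, read 13.61, 13.45 and 13.37 in BKS and 12.05, 13.25 and 13.20 in NZO. All NZO values were below all BKS values, most of all in NZO replicate 1, and the log2 difference was -0.64 (95% confidence interval -1.41 to 0.13, adjusted p = 0.592). It was -0.25 without NZO replicate 1 (adjusted p = 0.608). Probe set 1417494_a_at also did not overlap, with 13.66, 13.30 and 13.18 against 12.27, 13.16 and 13.04 and a log2 difference of -0.56 (adjusted p = 0.564). Both 1417495_x_at at -0.43 and 1448734_at at -0.20 had overlapping strains and adjusted p values of 0.741 and 0.913.

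In the opposite direction, Cp probe set 1417496_at read 10.40, 8.84 and 8.94 in BKS and 10.28, 10.85 and 9.95 in NZO. BKS replicate 1 lay with the NZO arrays, and the other BKS arrays lay below them. The log2 difference was 0.97 (95% confidence interval -0.09 to 2.03, adjusted p = 0.547), and 1.51 in the 2 against 2 arrays, where it was called (adjusted p = 0.0462). The dim probe set 1441326_at had its highest values on the number 1 arrays, 6.61 in BKS and 5.96 in NZO, against 4.01 to 4.64 elsewhere (log2 difference 0.13, adjusted p = 0.975). The remaining Cp probe sets, 1417497_at and 1448735_at, stayed between 3.97 and 5.47 with log2 differences of -0.27 and -0.15. The labels do not tell which Cp transcripts each probe set reads.

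**Figure D4:**
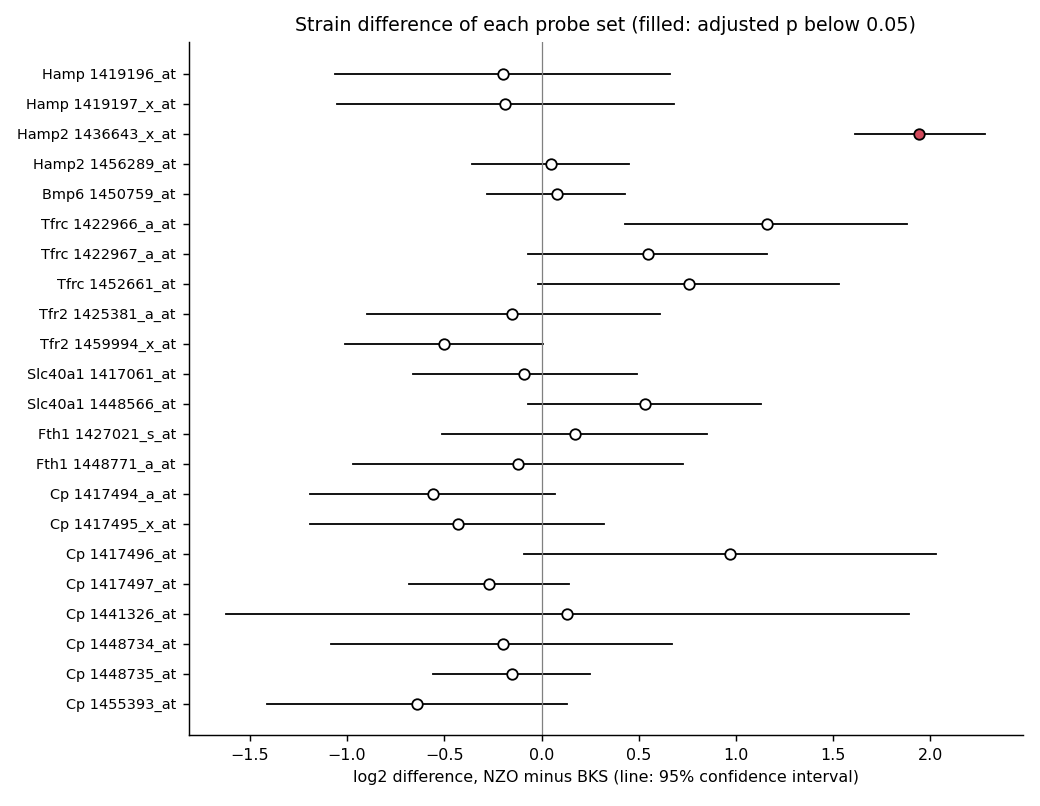
Log2 difference, NZO minus BKS, of the 22 probe sets with 95% confidence intervals from limma; the filled point has an adjusted p below 0.05. The interval lies above 0 for Hamp2 1436643_x_at (1.61 to 2.28) and Tfrc 1422966_a_at (0.43 to 1.88), and includes 0 for the other 20.

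Over the members together, 1 of 22 probe sets was called higher and 0 lower in limma, against 0.424% of all probe sets in either direction. At unadjusted p below 0.05 there were 2 higher and 0 lower. The median log2 difference was -0.10 over the members (0.20 without NZO replicate 1) and 0.00 over all probe sets, with 10 members above 0 and 12 below. In 6 of the 22 both strain means were under 6, where a change would be hard to see.

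The other genes of hepcidin control were not called over all 6 arrays. Of 26 measured genes of BMP, Smad and interleukin-6 signalling, 0 were called in limma, against 0.242% of all genes called higher and 0.324% lower (0.566% in either direction) when each gene was read by its brightest probe set. At unadjusted p below 0.05 there were 2 higher and 7 lower, counts that have no share of all genes to be set against. The median log2 difference was -0.28, against -0.03 over 18193 genes. Of the 26 genes, 3 averaged under 6, and the median over the 17271 probe sets with a higher strain mean of at least 6 was -0.13. The list median was -0.06 without NZO replicate 1. It was -0.19 with repeated quantile normalization and -0.14 with cyclic loess. Smad1, a transducer of BMP signals, read 9.76, 9.69 and 9.70 in BKS and 8.15, 8.89 and 8.28 in NZO. It was lower on each NZO array than on any BKS array (log2 difference -1.28, standard error 0.21, adjusted p = 0.0725). It was called in 5 of 14 alternatives, among them the number 1 arrays as a block (adjusted p = 0.0227). With that block 2.97% of all probe sets were called, 0.926% higher and 2.04% lower. Socs3, an inhibitor induced by Stat3, read 8.95, 8.68 and 7.38 against 5.33, 7.01 and 6.03 (log2 difference -2.21, adjusted p = 0.207). In the 2 against 2 arrays 1 of the 26 genes was called, Bmp4, which was lower (log2 difference -1.41, adjusted p = 0.0125). There 1.26% of all probe sets were called lower. Over all 6 arrays Bmp4 differed by -1.01 (adjusted p = 0.491). The strains did not overlap in 8 of the 26 genes, against 17.0% of all genes.

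Some further parts of the pathway were picked for their known roles after their values were seen. The BMP-induced genes Id1, Smad6, Smad7 and Atoh8 had log2 differences of 0.98 (adjusted p = 0.391), 0.45 (adjusted p = 0.297), 0.35 (adjusted p = 0.782) and -0.42 (adjusted p = 0.678). Only Atoh8 lay below 0, and none of these genes was called. Smad6 was dim, with means of 5.47 in BKS and 5.92 in NZO, and Smad7 was little brighter, at 5.93 and 6.28. Id1 read 6.16, 5.81 and 6.25 in BKS and 6.57, 7.85 and 6.73 in NZO, without overlap, and Smad6 did not overlap either. The co-receptor Hjv and the sensor Hfe differed by -0.05 (adjusted p = 0.981) and 0.28 (adjusted p = 0.861). Tmprss6, the protease that restrains hepcidin, differed by -0.49 (adjusted p = 0.647).

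Among 27 genes of iron and heme transport and storage, 0 were called in limma, with 1 higher and 2 lower at unadjusted p below 0.05 and a median of -0.29 (0.01 without NZO replicate 1). Steap4, a metalloreductase, read 11.79, 12.04 and 11.16 in BKS and 9.93, 10.91 and 10.57 in NZO (log2 difference -1.20, adjusted p = 0.244). Hmox1, which breaks down heme and releases its iron, read 7.01, 6.67 and 6.87 against 7.08, 8.31 and 7.65 (log2 difference 0.83, adjusted p = 0.411). Both had strains that did not overlap, as did 6 of the 27, against 17.0% of all genes.

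Of 19 measured genes of the iron regulatory proteins and of iron-sulfur cluster assembly, 0 were called in limma, with 2 higher and 2 lower at unadjusted p below 0.05. The median was -0.27, and it turned to 0.01 and 0.05 when the arrays were normalized again by quantiles or by cyclic loess, and to 0.03 without NZO replicate 1. Hscb, a co-chaperone of cluster assembly, read 7.51, 7.08 and 7.12 in BKS and 8.04, 7.90 and 8.07 in NZO. It was higher on every NZO array (log2 difference 0.77, adjusted p = 0.151) and was called with the number 1 arrays as a block (adjusted p = 0.036). Fbxl5, which directs the iron-dependent breakdown of an iron regulatory protein, read 8.91, 8.92 and 8.88 against 7.85, 8.65 and 8.31 (log2 difference -0.64, adjusted p = 0.361).

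Acute phase genes, which share interleukin-6 with Hamp as an inducer, had a mean below that of BKS in all 18 genes measured, and in 16 with repeated quantile normalization and 13 with cyclic loess. Of these genes 1 fell, 0 rose and 17 were not called, with 0 higher and 5 lower at unadjusted p below 0.05. The 1 that fell was Saa3, a serum amyloid A protein made by macrophages and other cells. It read 9.14, 9.32 and 9.0 in BKS and 7.79, 7.80 and 7.67 in NZO, a log2 difference of -1.40 (standard error 0.14, adjusted p = 0.0146). It was not called with cyclic loess (adjusted p = 0.0555), nor when BKS replicate 2 (adjusted p = 0.108), BKS replicate 3 (0.0803), NZO replicate 2 (0.0547) or NZO replicate 3 (0.092) was left out. Beside Saa3, Saa4 was called lower with the number 1 arrays as a block (adjusted p = 0.0236). In the 2 against 2 arrays Saa4 (adjusted p = 0.0467) and Lcn2 (log2 difference -2.16, adjusted p = 0.00993) were. Those settings called 2.04% and 1.26% of all probe sets lower. Over all 6 arrays Saa4 differed by -1.06 (adjusted p = 0.121) and Lcn2 by -3.52 (adjusted p = 0.356). The strains did not overlap in 8 of the 18 genes, against 17.0% of all genes. The list median was -0.68. It was -0.40 and -0.31 under those normalizations and -0.32 without NZO replicate 1. In the 2 against 2 arrays it was -0.17, and between the number 1 arrays alone -1.51. The mean log2 level of the 18 genes was 12.62, 11.83 and 11.64 in BKS, against 10.30, 11.73 and 11.16 in NZO, so the number 1 arrays held both the highest and the lowest level. Hamp was not the highest on that BKS array, where its value of 13.37 was the lowest of the strain.

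**Figure D5:**
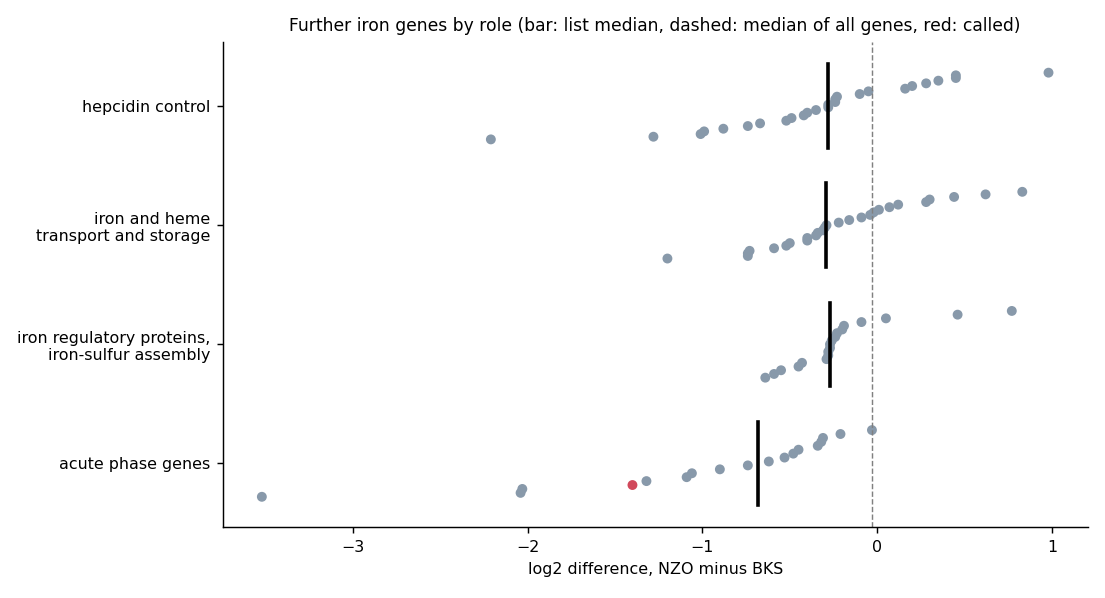
Log2 difference, NZO minus BKS, of each measured gene in 4 lists, those of iron genes by role and that of acute phase genes, read by its brightest probe set. The black bar is the list median, the dashed line the median of all genes (-0.03), and red marks genes with an adjusted p below 0.05. Over probe sets with a higher strain mean of at least 6 the median was -0.13. The acute phase median lies at -0.68 with Saa3 as the 1 called gene, and the other medians lie between -0.29 and -0.27, of which that of the iron regulatory and iron-sulfur genes turns positive under other normalizations.

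The genes whose values over the 6 arrays were most like those of Hamp2 were Cmah (Pearson r = 0.997), Unc45b (0.997), Hspa13 (0.994) and Nfic (0.991), among 15158 probe sets with 1 gene name and a higher strain mean of at least 6. In all, 97 such probe sets reached 0.95. Their log2 differences were 0.65, 2.74, 2.27 and 1.57 in that order, a description only, since choosing them by likeness to Hamp2 fixes their direction. In BKS, Unc45b read 4.51 to 4.77 and Nfic 4.70 to 5.18, near or below the array medians, so both entered through their NZO level. Most like Hamp were Pgs1 (0.997), Vgll4 (0.997), Pa2g4 (0.992) and Ankrd13c (0.991), and 270 probe sets reached 0.95. Each of these 4 genes had its lowest value in NZO replicate 1, as Hamp did. With 6 arrays that share a strain contrast, such likeness is a description.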

How the data were processed

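Per the submitters' processing notes, the authors made log2 expression values per probe set with RMA in Affymetrix Expression Console. Versions, and whether other arrays were normalized with these 6, are not given in the sources used here. The deposited values carry no detection calls, so the number of arrays and low signal limit the precision.

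Genes were named from the platform annotation. Of 45037 probe sets tested, 34945 had 1 symbol, 932 had several and 9160 none listed. The 64 control probe sets were left out. Tests used limma (version 3.58.1, R 4.3.3, all 6 arrays, no covariate, two-sided). On simulated data it called 37% of 100 changes of 1 log2 unit and 71% of 100 changes of 2, with 2 false calls. Many real changes of such sizes could therefore go uncalled. The simulated noise was independent between probe sets, with no shift shared by a whole array, and the changes were placed at random. These rates need not hold for the members. Replicate numbers follow accession order and pair nothing. Promoters came from RefSeq. Figures used matplotlib 3.10.9.

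The members, lists, tests and alternatives were chosen with earlier results of these data known. All probe sets of the members are named, and from each further list up to 4 called genes or, where none was called, the 2 with the smallest p. Genes of these lists called only with the block or in the 2 against 2 arrays are named as well.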

Additional observations from a re-analysis of the deposited data

How the results depend on the processing

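Hamp2 1436643_x_at kept its direction in all 14 alternatives and its call in 13. Over all probe sets, the count called was 191, and 604 with repeated quantile normalization, 584 with cyclic loess, 298 with the filter on dim probe sets, 373 with a trended robust variance, 829 with array weights, 1336 with the number 1 arrays as a block, 1192 in the 2 against 2 arrays and 26 to 272 with 1 array left out. The member count was 1, and 3 in the 2 against 2 arrays and 0 to 2 with 1 array left out. The count over the further lists was 1, and 2, 0, 2, 4, 4 and 5 with quantile normalization, cyclic loess, the filter, array weights, the block and the 2 against 2 arrays, and 0 to 1 with 1 array left out. The Hamp2 minus Hamp difference ran from 1.66 to 2.44 with 1 array left out and was 1.83 in the 2 against 2 arrays (exact p = 0.333, the smallest possible there).

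Members that were not called changed sign as follows. With repeated quantile normalization the values were 0.035 and 0.093 for Hamp, -0.018 for Hamp2 1456289_at, 0.15 for Tfr2 1425381_a_at, 0.21 for Slc40a1 1417061_at, 0.16 for Fth1 1448771_a_at and 0.092 for Cp 1448734_at. With cyclic loess they were 0.19 for both Hamp probe sets, -0.026, 0.21, 0.22, 0.27 and 0.14 in the same order. With array weights they were -0.036 for Bmp6, 0.031 for Tfr2, 0.095 for Fth1 1448771_a_at and 0.032 for Cp 1448734_at. In the 2 against 2 arrays they were 0.056 and 0.05 for Hamp, -0.091 for Bmp6, 0.15 for Tfr2, 0.16 for Slc40a1, 0.25 for Fth1 1448771_a_at, and 0.068 and 0.29 for Cp 1417495_x_at and 1448734_at. With 1 array left out the ranges were -0.48 to 0.20 for both Hamp probe sets, -0.092 to 0.18 for Hamp2 1456289_at, -0.038 to 0.17 for Bmp6, -0.34 to 0.23 for Tfr2, -0.31 to 0.17 for Slc40a1, -0.005 to 0.50 and -0.36 to 0.32 for Fth1, and -0.32 to 0.98 and -0.51 to 0.24 for Cp 1441326_at and 1448734_at. The cause was not tested. No paired analysis was possible because the strains share only the title number 1.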

Other observations

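On the chromosome, Hamp2 and Hamp are adjacent protein-coding genes in the reference annotation. Of the 12 genes formed by this pair and the 5 on either side, 10 were measured, and Hamp2 was the 1 called in limma. Usf2, the transcription factor gene next to Hamp, was at 9.39 in BKS and 8.42 in NZO (log2 difference -0.97, adjusted p = 0.455, and 0.0124 with the number 1 arrays as a block). Lsr, the following gene, differed by -0.18 (adjusted p = 0.938), and Mag, on the other side of Hamp2, by 0.21 (adjusted p = 0.828). Among markers of further liver cells, the 5 of stellate cells had a mean log2 level of 6.94 to 7.5 in BKS and 7.05 to 7.49 in NZO, and the 5 of leucocytes of 5.58 to 6.25 and 5.88 to 5.96. The stellate marker Dcn differed by 0.43 over all 6 arrays (adjusted p = 0.409). It was called higher in the 2 against 2 arrays (log2 difference 1.27, adjusted p = 0.0247), where 1.38% of all probe sets were called higher.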
